A study of Mus musculus with 12 samples.

Results

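The genes described here make, sense and move cholesterol: 30 genes were listed, and 26 of them had a probe set that the platform's annotation gives to that gene alone, out of 22180 genes named in this way. A gene with several such probe sets was read from the brightest, judged on all 12 arrays together. The measured genes were 16 of 18 synthesis enzymes, 4 of 5 sensing genes, 4 of 4 uptake and transport genes and 2 of 3 efflux and storage genes. Idi1 was found only on a probe set shared with another gene, and Acat2, Nr1h2 and Soat1 matched no probe set of their own, so these 4 were not analysed here. The probe sets were picked by annotation and brightness alone. The list of genes, however, was drawn up with earlier results of these arrays known, so its choice cannot be called independent of the changes.

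The cells were MLE12, a mouse line of distal lung epithelium transformed by SV40 large T antigen and grown in a medium with little serum. All 4 groups of 3 arrays had been infected with lentivirus that carried a pLKO.1 short hairpin RNA (shRNA) and was packaged in the human kidney line HEK-293T. Infection began at 60% confluency and lasted 12 h, and RNA was taken after 65 h of subculture. Labelling started from 100 ng of total RNA with a poly(T) primer. The hairpin targeted the long noncoding RNA NANCI in the first group, and the second group was given the scrambled hairpin of that set. The third group was given a hairpin against the RNA named LL34, and the fourth the scrambled hairpin run with it. The LL34 RNA itself was not analysed here. The labels call the replicates biological without naming separate infections, so a p-value speaks only of the spread among these arrays. In bulk RNA, fewer cells of a type and less RNA per cell cannot be told apart.

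Cells make cholesterol from acetyl-CoA through mevalonate and isoprenoids to squalene, which is closed into a ring and trimmed in a chain of reactions of the endoplasmic reticulum. When sterols are scarce, the transcription factor SREBP-2, encoded by Srebf2, is escorted by Scap to the Golgi, cut free and sent to the nucleus, where it switches on genes of synthesis and uptake. When sterols are plentiful, Insig proteins hold Scap back, and oxysterols activate liver X receptors, which switch on export pumps such as Abca1. Lung epithelial cells use cholesterol in membranes and in surfactant.

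Stretches of promoter are shown for the 6 genes with the deepest falls after LL34 shRNA among those with a single promoter window, because these genes fell together. The windows run from 250 bases before to 50 bases after the start site in RefSeq (build GRCm38.p6), and 24 of the 30 listed genes had one. No window was held for Fdps, Fdft1, Sqle, Stard4, Npc1 and Abcg1. Each line gives the strand on which the gene is read, 5′ to 3′. The capitals mark the letters CCAAT, which the factor NF-Y reads, the sterol element TCACNCCAC and the E-box CACGTG, each looked for on both strands, so that the first also appears as its reverse complement. The box read by Sp1 was counted too and is left in lower case. The marked matches do not overlap.
Cyp51, chr5:4104702-4104746, minus strand: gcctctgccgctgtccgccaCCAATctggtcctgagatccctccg
Hmgcs1, chr13:119690101-119690330, plus strand: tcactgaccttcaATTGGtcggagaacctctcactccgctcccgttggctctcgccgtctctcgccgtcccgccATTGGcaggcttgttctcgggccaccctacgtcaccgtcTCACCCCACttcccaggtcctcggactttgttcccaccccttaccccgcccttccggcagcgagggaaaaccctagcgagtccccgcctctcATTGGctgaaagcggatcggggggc
Msmo1, chr8:64733609-64733758, minus strand: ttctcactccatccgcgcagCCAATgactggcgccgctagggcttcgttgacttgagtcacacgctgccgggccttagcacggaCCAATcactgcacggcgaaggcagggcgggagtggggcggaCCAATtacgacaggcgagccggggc
Insig1, chr5:28071176-28071336, plus strand: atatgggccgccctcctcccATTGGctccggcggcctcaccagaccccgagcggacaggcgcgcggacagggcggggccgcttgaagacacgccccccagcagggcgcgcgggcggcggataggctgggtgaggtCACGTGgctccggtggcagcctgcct
Srebf2, chr15:82147114-82147158, plus strand: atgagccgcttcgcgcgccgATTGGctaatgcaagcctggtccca
Nsdhl, chrX:72918392-72918520, plus strand: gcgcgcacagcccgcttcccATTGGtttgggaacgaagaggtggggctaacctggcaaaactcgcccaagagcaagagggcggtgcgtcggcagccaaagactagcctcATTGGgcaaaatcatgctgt

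Of the 15 synthesis genes with a window, 14 (93.3%) held CCAAT, and Acat2 did not. Among all 27025 genes with windows the share was 41.1%. Of the 9 other listed genes with a window, 6 held it. GGGCGG, the Sp1 box, was found for 14 of the 15 synthesis genes and for 8 of the 9 others, against 38.2% of all genes. CACGTG was found for 3 of the 15 and 3 of the 9, against 8.09%. TCACNCCAC was found only in Hmgcs1, with its first base at -137 from the start site, against 1.44% of all genes. Only this exact pattern was searched, so a sterol element with other letters would not have been counted. These matches describe letters in a window and show no binding. Genes with several start sites have several windows and so more chances of a match.

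Facts of the arrays come first, because some touch the results. The median log2 signal lay between 6.84 and 6.88 on the 6 NANCI arrays but between 6.54 and 6.61 on the 6 LL34 arrays, which looked normalized apart, so each shRNA group was compared with its own scrambled group and the 2 comparisons share no array. LL34 scrambled replicate 3 stood apart: its mean correlation with its own group was 0.988, and its upper quartile was 8.50, against 8.65 and 8.66 on the other arrays of its group. Where a call on one of the 26 genes changed without it, this is said beside the result. After NANCI shRNA the gene Sfta3-ps, for which Nanci is a listed synonym, fell by 2.91 on the log2 scale (limma adjusted p = 1.72e-07) and kept 13.3% of its signal, and Nkx2-1, the neighbouring lung transcription factor, fell by 1.00. After LL34 shRNA these genes also fell, by 0.67 and 0.27. Of 11 distal lung epithelial markers, Sftpb, Sftpc, Abca3, Nkx2-1, Cdh1 and Krt8 lay above the median level of all probe sets in every group. Sftpa1, Sftpd and Lamp3, which mark mature type 2 cells, lay below it in every group. Epcam lay below it except in the LL34 shRNA group, and Krt18 except in the LL34 scrambled group. The summed log2 level of the 11 markers ran from 89.9 to 94.5 over the groups. Of the 11, 4 fell after NANCI shRNA, and 3 fell and 2 rose after LL34 shRNA. Over all named genes, 13.6% were called lower after NANCI shRNA, and 10.3% lower and 9.77% higher after LL34 shRNA. Of 4 measured leukocyte markers only Cd68 lay above that median (sums 25.2 to 27.5), and of 4 endothelial markers only Tek did, in 3 of the groups (sums 24.5 to 27.7). Of 5 fibroblast markers, 4 lay above it in every group (sums 39.8 to 41.5). Cd68 rose by 0.88 and Dcn fell by 0.91 after NANCI shRNA, and Tek fell by 1.05 after NANCI shRNA and by 1.26 after LL34 shRNA. The part of these markers in the results was not tested.

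By their calls, 6 of 16 synthesis enzymes moved in opposite directions after the 2 hairpins, each read against its own scrambled group. The calls depended on which scrambled arrays served as control, as given further on. After LL34 shRNA, 13 of 16 fell and none rose, with a median change of -0.54 on the log2 scale. After NANCI shRNA, 7 rose and 2 fell, with a median of 0.19. The medians over all named genes were -0.02 and 0.00. Of 6 measured uptake, transport, efflux and storage genes, 2 rose and 1 fell after LL34 shRNA (median 0.17), and 1 rose and 3 fell after NANCI shRNA (median -0.14). Throughout, a change is the shRNA mean minus the scrambled mean of the same set on the log2 scale. SE is its standard error from the fit, and "rose" or "fell" means that limma's p-value, adjusted by the Benjamini-Hochberg method over all 41345 probe sets, was under 0.05.

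These counts can be read against the background. Over all named genes, 9.77% were called higher and 10.3% lower after LL34 shRNA, and 13.2% higher and 13.6% lower after NANCI shRNA. All 26 genes were at or above the median level of probe sets. Among the 12528 named genes as bright as that, the shares called were 16.7% higher and 16.9% lower after LL34 shRNA, and 22% higher and 22.7% lower after NANCI shRNA. All 3 LL34 shRNA arrays lay below all 3 scrambled arrays for 14 of 16 synthesis enzymes and above for 0, where 17.2% of all named genes lay wholly below and 18.1% wholly above. All 3 NANCI shRNA arrays lay above all 3 scrambled arrays for 10 enzymes and below for 3, where 20.5% of all named genes lay wholly above and 20% wholly below.

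**Figure D1:**
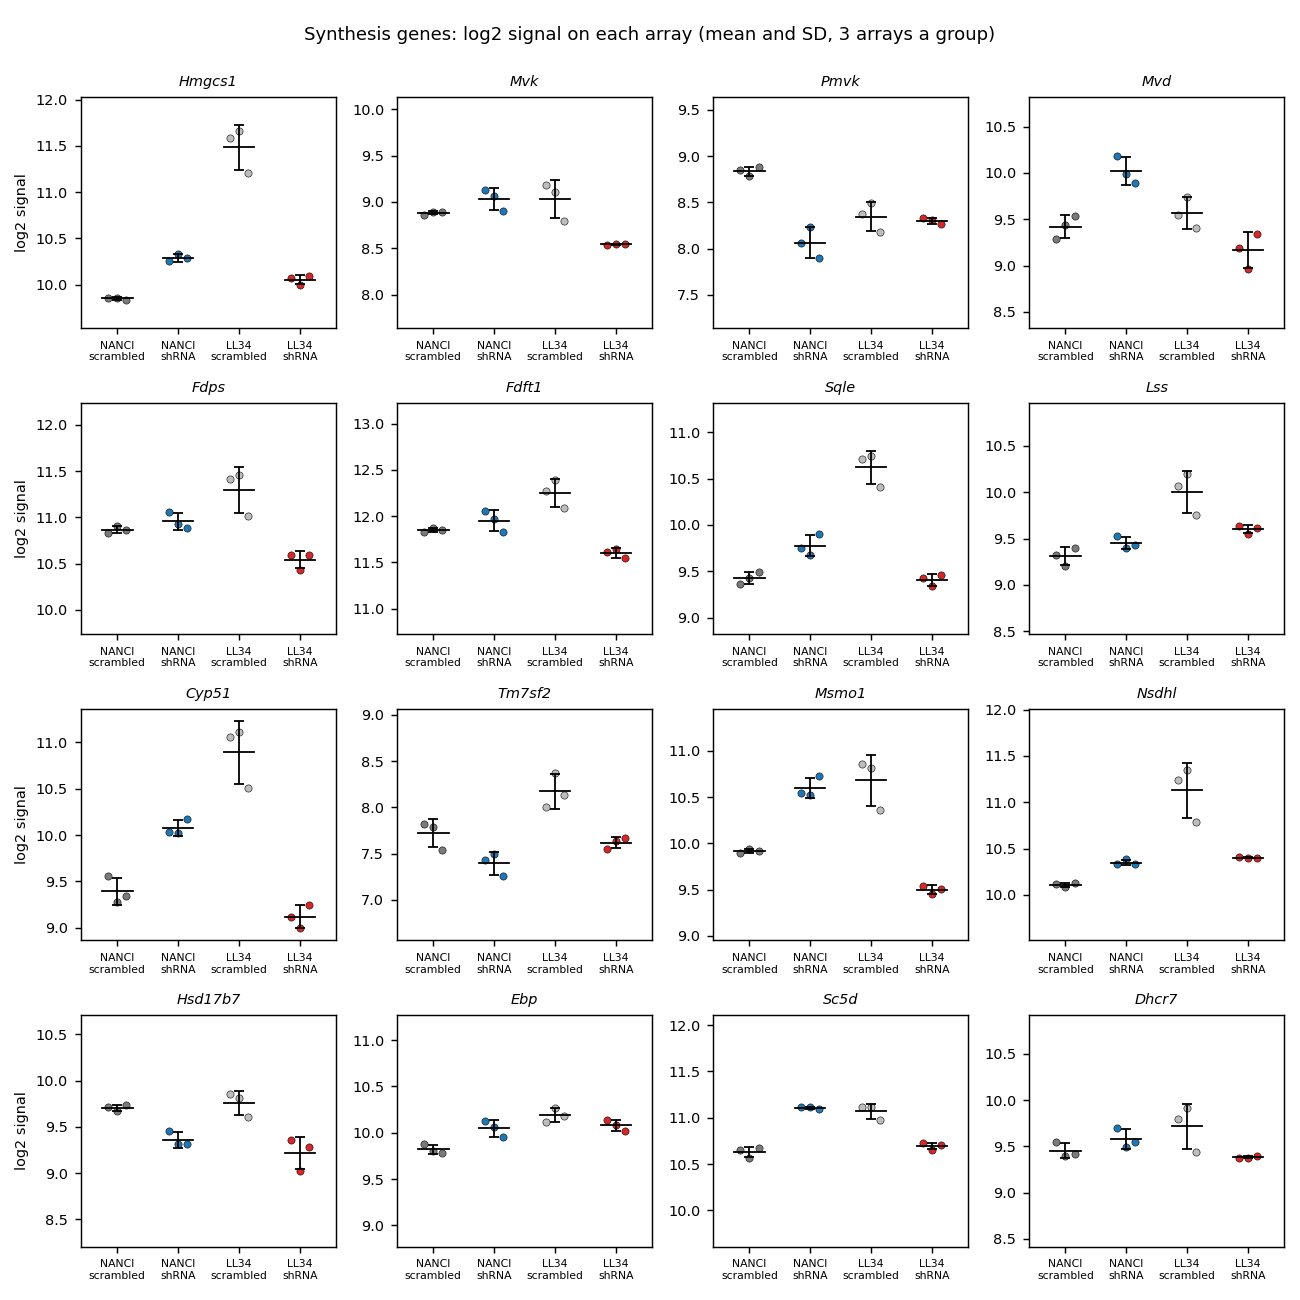
Log2 signal of the 16 measured synthesis enzymes on each array (points), with the mean and SD of each group of 3; every panel spans 2.5 log2 units. In 14 of 16 panels the 3 LL34 shRNA arrays lie below all 3 of their scrambled arrays, and replicate 3, the rightmost LL34 scrambled point, is often the lowest of its group.

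The early steps build isoprenoids from acetyl units. Hmgcs1, the synthase that joins acetyl units into HMG-CoA, had signals of 11.59, 11.66 and 11.21 on the LL34 scrambled arrays and 10.07, 10.00 and 10.09 on the LL34 shRNA arrays. The groups lay more than 1 log2 unit apart and did not overlap. Hmgcs1 fell by 1.43 (SE 0.0987, limma adjusted p = 6.15e-06), which left 37.1% of the scrambled signal. NANCI arrays gave 9.86, 9.86 and 9.83 with scrambled and 10.25, 10.33 and 10.29 with targeting hairpin. The replicates were tight and the shRNA arrays all higher. The rise was 0.44 (SE 0.0987, limma adjusted p = 0.00787).

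Mvd, which removes a carboxyl group from the mevalonate chain, read 9.28, 9.44 and 9.53 on NANCI scrambled arrays and 10.18, 9.99 and 9.89 on NANCI shRNA arrays. All the shRNA arrays were above all the scrambled ones, and the rise was 0.60 (SE 0.121, limma adjusted p = 0.00394). For the LL34 set, Mvd read 9.54, 9.75 and 9.40 on scrambled and 9.19, 8.97 and 9.34 on shRNA arrays. These groups did not overlap either, but the gap was small, and the fall of 0.40 was close to the threshold (limma adjusted p = 0.0475). It passed without LL34 scrambled replicate 3, LL34 shRNA replicate 3 or NANCI shRNA replicate 1, and missed the threshold without any 1 of the other 9 arrays (adjusted p up to 0.171).

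Pmvk, the phosphomevalonate kinase, was the only early enzyme that fell after NANCI shRNA. It read 8.85, 8.78 and 8.88 on NANCI scrambled arrays and 8.06, 8.23 and 7.90 on NANCI shRNA arrays. The groups were well separated, and Pmvk fell by 0.77 (SE 0.0936, limma adjusted p = 0.000127), which left 58.5% of the scrambled signal. After LL34 shRNA its signals overlapped, at 8.37, 8.49 and 8.18 on scrambled and 8.33, 8.31 and 8.27 on shRNA arrays, with a change of -0.04 (95% confidence interval -0.25 to 0.16, limma adjusted p = 0.838).

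The remaining early enzymes changed only after LL34 shRNA by these calls. Mvk, mevalonate kinase, fell by 0.49, Fdps, which makes farnesyl diphosphate, fell by 0.75, and Fdft1, which joins a pair of farnesyl units into squalene, fell by 0.65. Their limma adjusted p-values were 0.00442, 0.000752 and 0.000328. After NANCI shRNA their changes were 0.15, 0.09 and 0.10, none of them called. The test of the difference between the 2 responses, described further on, was passed by each of the 3.

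From squalene to cholesterol, 8 of 10 enzymes fell after LL34 shRNA, and 5 rose and 1 fell after NANCI shRNA. Sqle, the squalene epoxidase, read 10.71, 10.74 and 10.41 on LL34 scrambled arrays and 9.43, 9.34 and 9.46 on LL34 shRNA arrays. Each shRNA array was below each scrambled array by nearly 1 log2 unit or more. Sqle fell by 1.21 (SE 0.0924, limma adjusted p = 1.16e-05), which left 43.1% of the scrambled signal. NANCI arrays read 9.36, 9.43 and 9.49 on scrambled and 9.75, 9.68 and 9.90 on shRNA arrays. The shRNA arrays were all higher, and the rise was 0.35 (SE 0.0924, limma adjusted p = 0.0192). Without NANCI shRNA replicate 3 or NANCI scrambled replicate 1 this rise missed the threshold (adjusted p = 0.0775 and 0.0726).

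Cyp51, the lanosterol demethylase, had the deepest fall among the 26 genes after LL34 shRNA. It read 11.06, 11.12 and 10.51 on LL34 scrambled arrays and 9.11, 9.00 and 9.24 on LL34 shRNA arrays. Scrambled replicate 3 was the low array of its group, yet it lay above every shRNA array. Cyp51 fell by 1.77 (SE 0.145, limma adjusted p = 1.92e-05), which left 29.2% of the scrambled signal. NANCI arrays read 9.56, 9.28 and 9.34 on scrambled and 10.04, 10.02 and 10.17 on shRNA arrays, a rise of 0.68 (limma adjusted p = 0.00567) with no overlap.

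Msmo1, which starts the removal of the methyl groups at carbon 4, was also called in both sets. Its signals were 10.86, 10.82 and 10.37 on LL34 scrambled arrays and 9.54, 9.45 and 9.51 on LL34 shRNA arrays. They were 9.90, 9.94 and 9.92 on NANCI scrambled arrays and 10.55, 10.52 and 10.73 on NANCI shRNA arrays. Neither pair of groups overlapped. Msmo1 fell by 1.18 after LL34 shRNA (SE 0.114, limma adjusted p = 5.47e-05) and rose by 0.68 after NANCI shRNA (limma adjusted p = 0.00122).

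Sc5d, a desaturase near the end of the chain, read 10.65, 10.57 and 10.67 on NANCI scrambled arrays and 11.11, 11.11 and 11.09 on NANCI shRNA arrays. LL34 arrays read 11.12, 11.11 and 10.98 on scrambled and 10.72, 10.66 and 10.71 on shRNA arrays. The 2 sets mirrored each other, with no overlap in either. Sc5d rose by 0.48 after NANCI shRNA (SE 0.0564, limma adjusted p = 0.000107) and fell by 0.37 after LL34 shRNA (limma adjusted p = 0.000971).

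By the calls of the main fit, Hsd17b7, a reductase that acts on the 3-keto intermediate, was the only synthesis enzyme that fell after both hairpins. It read 9.71, 9.67 and 9.74 on NANCI scrambled and 9.46, 9.31 and 9.31 on NANCI shRNA arrays. LL34 arrays read 9.85, 9.81 and 9.61 on scrambled and 9.35, 9.03 and 9.28 on shRNA arrays. All shRNA arrays were below their scrambled arrays. The falls were 0.35 (limma adjusted p = 0.022) and 0.54 (limma adjusted p = 0.00244). The fall after NANCI shRNA missed the threshold without NANCI shRNA replicate 2 or 3 or NANCI scrambled replicate 1 or 3 (adjusted p from 0.0628 to 0.0756).

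Of the other late enzymes, 3 fell after LL34 shRNA. Nsdhl, a dehydrogenase of the demethylation steps, fell by 0.73 after LL34 shRNA, Tm7sf2, a sterol reductase, fell by 0.55, and Lss, which closes the ring of lanosterol, fell by 0.40. Their limma adjusted p-values were 0.00134, 0.00459 and 0.018. The Lss call was lost without LL34 shRNA replicate 2 or 3 or LL34 scrambled replicate 1 or 2, with adjusted p from 0.0518 to 0.0665. After NANCI shRNA Nsdhl, Tm7sf2 and Lss changed by 0.24, -0.32 and 0.14, and none was called (limma adjusted p = 0.204, 0.0574 and 0.43). The Nsdhl rise passed without LL34 scrambled replicate 3, whose spread enters the shared error (limma adjusted p = 0.00457), with the NANCI set fitted alone (0.0297) and with array weights (0.0446). Tm7sf2 passed with quantile normalization over all arrays (-0.35, limma adjusted p = 0.046), with arrays centred on their medians (0.0496) and with dim probe sets left out (0.0316). It also passed with the replicate number as a block (0.0292) and with all scrambled arrays as 1 control group (-0.55, limma adjusted p = 0.0273). Without NANCI scrambled replicate 3 or LL34 scrambled replicate 1 or 2 it passed too (limma adjusted p from 0.0277 to 0.0435). Ebp, a sterol isomerase, rose by 0.23 after NANCI shRNA (limma adjusted p = 0.0309), a call lost without NANCI shRNA replicate 1 or 2 or NANCI scrambled replicate 2 or 3 (adjusted p from 0.082 to 0.116), and changed by -0.11 after LL34 shRNA.

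Dhcr7, the reductase of the last step, was called in neither set, with changes of 0.12 and -0.33 (limma adjusted p = 0.545 and 0.0603). Its LL34 value lay near the threshold: Dhcr7 fell by 0.47 without LL34 scrambled replicate 3 (limma adjusted p = 0.00198), by 0.37 with quantile normalization (0.0103), by 0.44 with array weights (0.0014) and by 0.33 with dim probe sets left out (0.0338). Leaving out that array made most falls of the LL34 comparison larger. Then 14 of the 16 enzymes fell, their median change less that of all named genes went from -0.524 to -0.616, Cyp51 fell by 1.97 and Hmgcs1 by 1.57.

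**Figure D2:**
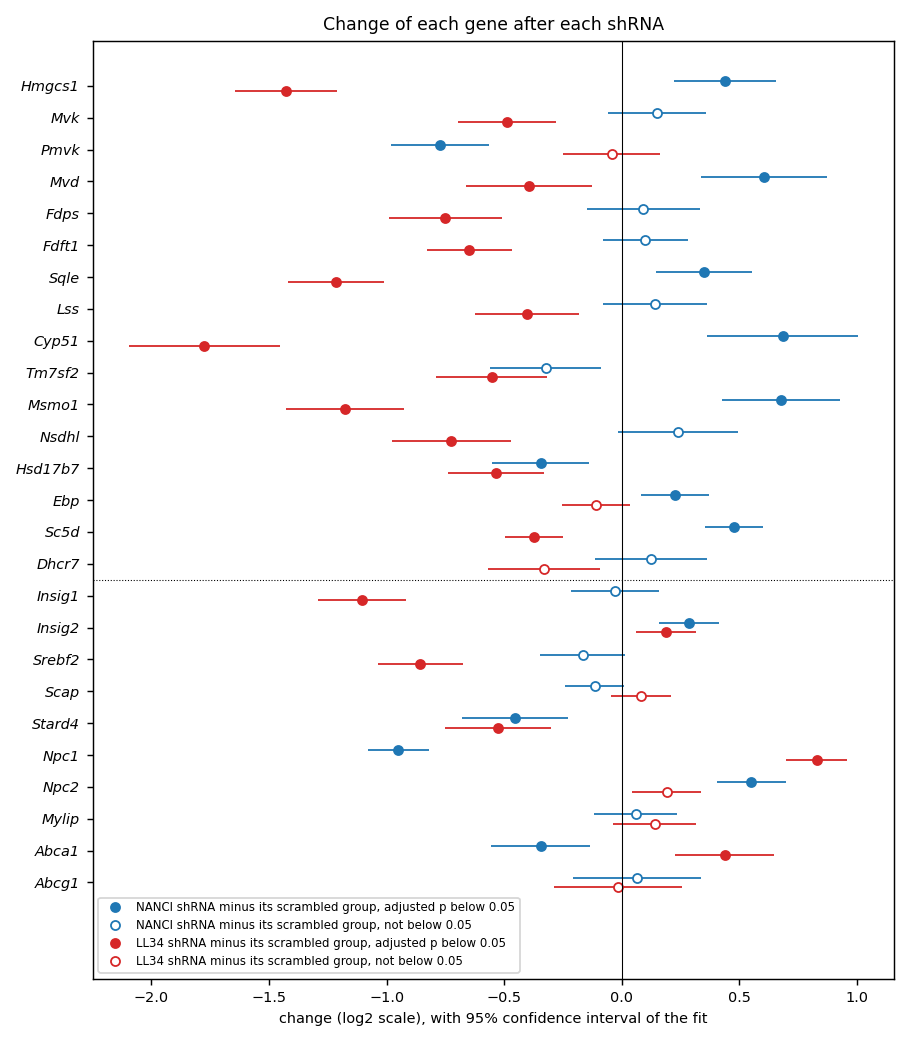
Change of each measured gene after NANCI shRNA (blue) and LL34 shRNA (red) on the log2 scale, with the 95% confidence interval of the fit; filled points passed an adjusted p of 0.05. Above the dotted line, which divides synthesis enzymes from the rest, 13 of 16 red points are filled and to the left of 0, and 7 blue points are filled and to the right.

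Of the 4 measured sensing genes, Insig1 and Srebf2 fell and Insig2 rose after LL34 shRNA, and only Insig2 was called, as a rise, after NANCI shRNA. Insig1, the retention protein that is itself an SREBP target, read 12.68, 12.76 and 12.40 on LL34 scrambled arrays and 11.54, 11.51 and 11.48 on LL34 shRNA arrays. The shRNA replicates lay close together, far below the scrambled ones. Insig1 fell by 1.11 (limma adjusted p = 1.2e-05), which left 46.4% of the scrambled signal. After NANCI shRNA its signals overlapped, at 11.87, 11.87 and 11.96 on scrambled and 11.86, 11.93 and 11.81 on shRNA arrays, with a change of -0.03 (95% confidence interval -0.22 to 0.16, limma adjusted p = 0.889).

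Srebf2, the gene of SREBP-2, read 11.94, 12.02 and 11.98 on LL34 scrambled arrays and 11.12, 11.20 and 11.04 on LL34 shRNA arrays. For this gene scrambled replicate 3 sat with its group. Srebf2 fell by 0.86 (limma adjusted p = 5.03e-05), which left 55.2% of the scrambled signal. In the NANCI set it read 11.65, 11.41 and 11.38 on scrambled and 11.37, 11.38 and 11.20 on shRNA arrays. The shRNA arrays ended just at the lower edge of the scrambled ones, and the change of -0.17 was not called (limma adjusted p = 0.215).

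Insig2, the second retention protein, which is not switched on by SREBP, read 9.59, 9.57 and 9.48 on NANCI scrambled and 9.85, 9.75 and 9.90 on NANCI shRNA arrays. It rose by 0.28 (SE 0.058, limma adjusted p = 0.00444), with no overlap. In the LL34 set it read 9.42, 9.47 and 9.39 on scrambled and 9.60, 9.60 and 9.65 on shRNA arrays. These groups did not overlap, and the rise of 0.19 was at the edge of the threshold (limma adjusted p = 0.0488). It was lost when any array but NANCI shRNA replicate 2 or 3 was left out, with adjusted p up to 0.16, and under both rescalings of the arrays.

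Scap, the escort of SREBP, read 10.13, 10.11 and 10.15 on NANCI scrambled and 10.07, 10.01 and 9.97 on NANCI shRNA arrays. In the LL34 set it read 9.83, 9.91 and 9.87 on scrambled and 9.89, 10.04 and 9.91 on shRNA arrays. The differences were small beside those of Insig1 and Srebf2, at -0.12 and 0.08, and neither was called (limma adjusted p = 0.216 and 0.433). A second, dimmer probe set of Scap changed by 0.08 and -0.01, also not called.

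**Figure D3:**
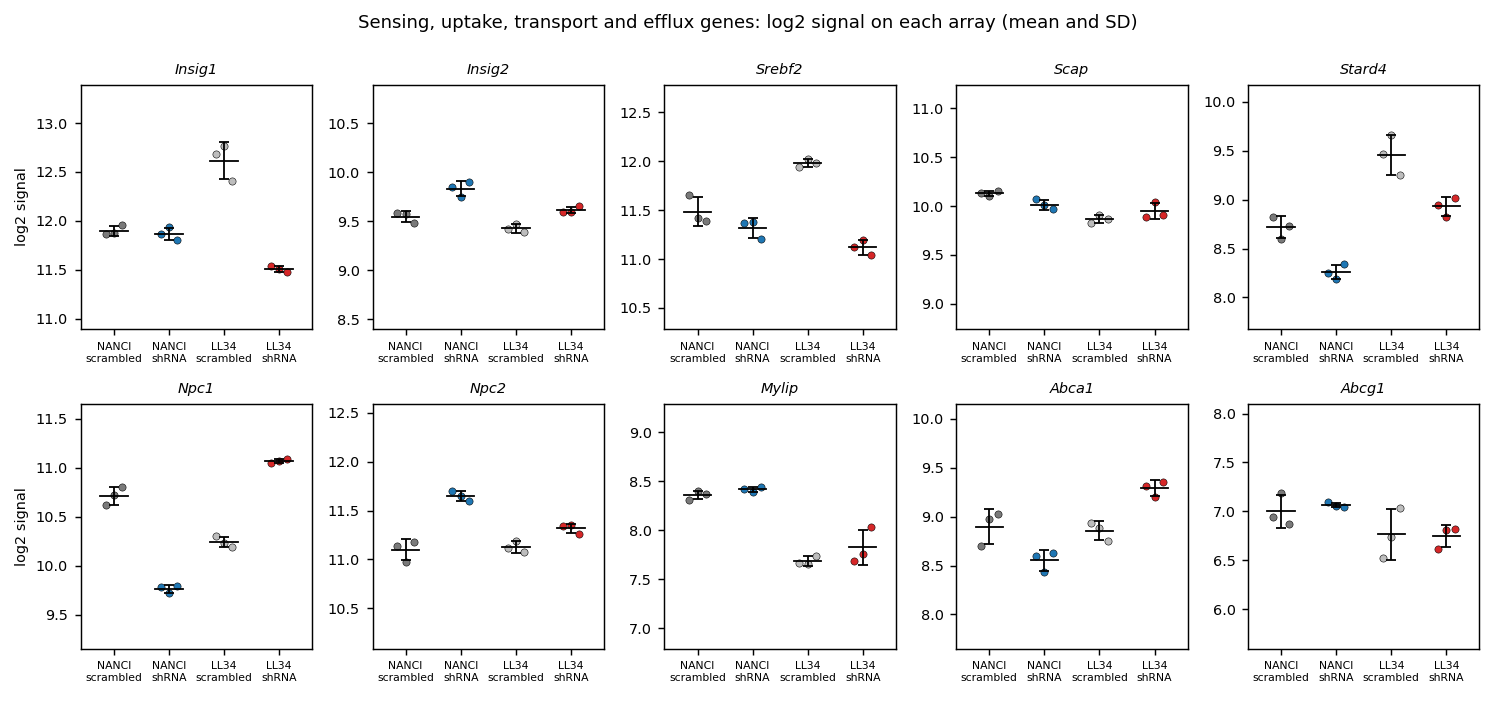
Log2 signal of the 10 measured sensing, uptake, transport and efflux genes on each array (points), with the mean and SD of each group of 3; every panel spans 2.5 log2 units. Within the LL34 set the shRNA arrays of Insig1 and Srebf2 lie below their scrambled arrays, and those of Npc1 and Abca1 lie above; levels are not to be read across the 2 sets, which looked normalized apart.

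Npc1, the membrane protein that exports cholesterol from lysosomes, rose after LL34 shRNA and fell after NANCI shRNA. It read 10.30, 10.23 and 10.19 on LL34 scrambled arrays and 11.05, 11.07 and 11.09 on LL34 shRNA arrays. In the NANCI set it read 10.62, 10.72 and 10.80 on scrambled and 9.79, 9.72 and 9.79 on shRNA arrays. Replicates were tight in each group and the groups of a set lay far apart. Npc1 rose by 0.83 after LL34 shRNA (SE 0.059, limma adjusted p = 7.62e-06), reaching 178% of the scrambled signal. It fell by 0.95 after NANCI shRNA (SE 0.059, limma adjusted p = 1.42e-06), keeping 51.8%. A second probe set of Npc1 was dimmer, with group means of 6.07 to 6.20. These lay below the median of all probe sets, which was 6.56 to 6.87 over the groups. This probe set changed by -0.09 in each set, not called (limma adjusted p = 0.735 after NANCI and 0.685 after LL34 shRNA), so the probe sets of this gene disagreed.

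Npc2, the soluble partner that hands cholesterol to Npc1 in the lysosome, did not follow Npc1. It read 11.14, 10.98 and 11.18 on NANCI scrambled and 11.70, 11.65 and 11.60 on NANCI shRNA arrays, and rose by 0.55 (SE 0.0661, limma adjusted p = 0.00012). In the LL34 set it read 11.12, 11.19 and 11.07 on scrambled and 11.34, 11.35 and 11.26 on shRNA arrays. The LL34 shRNA arrays were all higher, but the change of 0.19 was not called (limma adjusted p = 0.0793).

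Abca1, the pump that loads cholesterol onto lipid-poor apolipoproteins, moved in the same directions as Npc1. It read 8.93, 8.89 and 8.75 on LL34 scrambled and 9.32, 9.20 and 9.36 on LL34 shRNA arrays. The shRNA arrays were all higher, and Abca1 rose by 0.44 (SE 0.0952, limma adjusted p = 0.00904), reaching 135% of the scrambled signal. In the NANCI set it read 8.70, 8.97 and 9.03 on scrambled and 8.60, 8.43 and 8.63 on shRNA arrays. The groups were separated by a narrow gap, with scrambled replicate 1 near the shRNA arrays. The fall of 0.34 (limma adjusted p = 0.0246) missed the threshold without NANCI shRNA replicate 2 or NANCI scrambled replicate 2 or 3, with adjusted p from 0.0835 to 0.101.

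Stard4, a cytosolic carrier of sterols and an SREBP target, fell after both hairpins. It read 8.83, 8.60 and 8.73 on NANCI scrambled and 8.25, 8.19 and 8.34 on NANCI shRNA arrays. In the LL34 set it read 9.47, 9.66 and 9.25 on scrambled and 8.94, 8.83 and 9.02 on shRNA arrays. Neither pair of groups overlapped. The falls were 0.46 (limma adjusted p = 0.00779) and 0.53 (limma adjusted p = 0.00454).

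Mylip, a ubiquitin ligase that marks lipoprotein receptors for breakdown, and Abcg1, a pump that hands cholesterol to lipoprotein particles, were not called in either set. Mylip read 8.31, 8.40 and 8.37 on NANCI scrambled and 8.43, 8.39 and 8.44 on NANCI shRNA arrays, and 7.66, 7.65 and 7.74 on LL34 scrambled and 7.69, 7.76 and 8.03 on LL34 shRNA arrays. Its changes were 0.06 and 0.14, and LL34 shRNA replicate 3 was the high array of its group. Abcg1 read 6.95, 7.19 and 6.87 on NANCI scrambled and 7.09, 7.06 and 7.04 on NANCI shRNA arrays, and 6.52, 6.74 and 7.04 on LL34 scrambled and 6.62, 6.81 and 6.82 on LL34 shRNA arrays. The Abcg1 groups overlapped in both sets, with changes of 0.06 and -0.02 whose 95% confidence intervals ran from -0.21 to 0.34 and from -0.29 to 0.25.

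The contrast between the hairpins was then tested gene by gene, as the LL34 change minus the NANCI change. This difference was lower for 12 of 16 synthesis enzymes and higher for 1, Pmvk, with a median of -0.80. By arithmetic it is also the gap between the 2 shRNA groups less the gap between the 2 scrambled groups. The enzymes' median was -0.29 in the shRNA gap and 0.43 in the scrambled gap. Less the median of all named genes, it was -0.03 and 0.66. The offset between the sets was not equal at all levels. Upper quartiles lay nearer than medians, at 8.50 to 8.66 on the LL34 and 8.70 to 8.76 on the NANCI scrambled arrays. How the difference divides between the 2 gaps therefore depends on this correction. Over all named genes 12.3% were called higher and 12% lower in the test of the difference. Of the 6 uptake, transport, efflux and storage genes, 2 were higher (Npc1 and Abca1) and 1 was lower (Npc2). Insig1 and Srebf2 were lower as well. Cyp51 showed the widest gap of the 26, at -2.46 (limma adjusted p = 1.33e-05), and Npc1 the widest on the other side, at 1.78 (limma adjusted p = 4.55e-07). Taken by their calls, 6 enzymes rose after NANCI shRNA and fell after LL34 shRNA: Hmgcs1, Mvd, Sqle, Cyp51, Msmo1 and Sc5d. Another 6 fell after LL34 shRNA alone: Mvk, Fdps, Fdft1, Lss, Tm7sf2 and Nsdhl. Of these, Tm7sf2 did not pass the test of the difference. Without LL34 scrambled replicate 3, Dhcr7 also passed that test (-0.59, limma adjusted p = 0.00197), which made 13 enzymes lower.

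**Figure D4:**
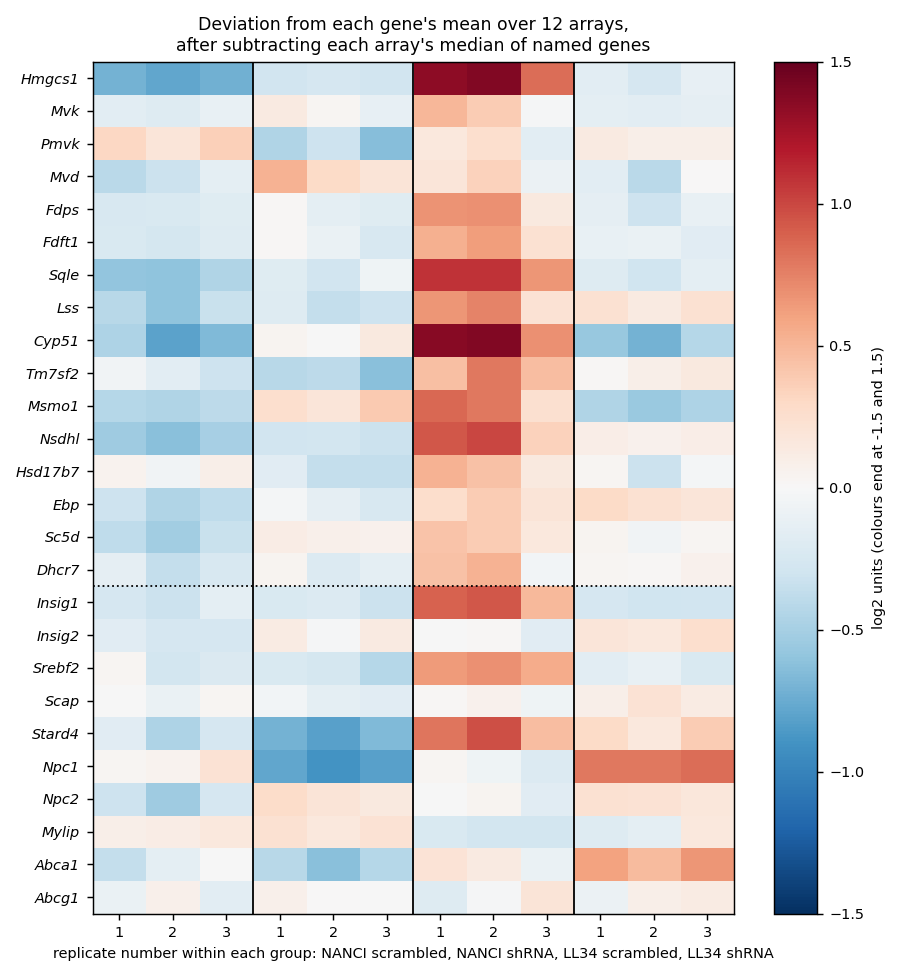
Log2 signal of each measured gene on each of the 12 arrays, after subtracting the array's median over named genes and then the gene's mean over arrays; red is above and blue below that mean, and colours end at -1.5 and 1.5. The block of 3 LL34 scrambled arrays is red for most synthesis enzymes, Insig1, Srebf2 and Stard4, and its replicate 3 is the palest of the 3 for most of them.

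The 2 scrambled groups themselves differed in these genes. Set and handling cannot be told apart in this comparison, and since the whole LL34 set sat lower (median over named genes -0.23, scrambled against scrambled), 9.9% of all named genes were called higher and 50.5% lower. Against that shift, 11 of 16 synthesis enzymes were higher in the LL34 scrambled group and 1 was lower, with a median difference of 0.43, which is 0.66 above that of all named genes. Hmgcs1 was 1.63 higher, Cyp51 1.50, Sqle 1.20, Nsdhl 1.02 and Msmo1 0.76. Insig1 (0.72), Stard4 (0.74) and Srebf2 (0.50) were higher too, while Mylip (-0.67), Npc1 (-0.47), Pmvk (-0.49) and Scap (-0.27) were lower. Without LL34 scrambled replicate 3, Mvk (0.27, limma adjusted p = 0.00765) and Dhcr7 (0.40, limma adjusted p = 0.00128) were called higher too, which made 13 enzymes, and Abcg1 was called lower (-0.37, limma adjusted p = 0.0118). When arrays were centred on their medians, Npc1 (-0.17, limma adjusted p = 0.0557) and Pmvk (-0.19, limma adjusted p = 0.134) were no longer called, Npc2 was called higher (0.33), Scap turned to 0.035 and was not called, Insig2 turned from -0.12 (not called) to 0.18 (called), and the enzymes split into 15 higher and 0 lower. Without centring, the dimmer probe set of Scap differed by -0.88 between the scrambled groups (limma adjusted p = 1.76e-06). Less the median of all named genes this was -0.66, against -0.04 for the brighter probe set, so the probe sets of Scap disagreed here.

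Between the 2 shRNA groups the median over named genes was -0.27, and 14.1% of named genes were called higher and 55.2% lower in the LL34 shRNA group. The synthesis enzymes gave 1 higher and 8 lower (5 and 3 with arrays centred on their medians), and their median of -0.29 differed by -0.03 from that of all named genes. Msmo1 (-1.10), Cyp51 (-0.96) and Mvd (-0.85) were lowest relative to the NANCI shRNA arrays, and Npc1 (1.31), Abca1 (0.74) and Stard4 (0.67) were higher. All 6 uptake, transport, efflux and storage genes were called between these groups, 3 higher and 3 lower, but Npc2 and Abcg1 lost their calls with arrays centred on their medians. The 1 higher enzyme was Pmvk, at 0.24 (limma adjusted p = 0.0443), and this call held without NANCI shRNA replicate 2 or LL34 scrambled replicate 2 or 3 but not without any 1 of the other 9 arrays (adjusted p up to 0.171). Without LL34 scrambled replicate 3, Hmgcs1 (-0.24, limma adjusted p = 0.00202) and Dhcr7 (-0.19, limma adjusted p = 0.027) were called lower as well, which made 10 enzymes lower.

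Ordered by level relative to each array's median, the LL34 scrambled group was the highest of the 4 for 14 of 16 synthesis enzymes, the exceptions being Pmvk and Mvd, and the NANCI scrambled group was the lowest for 12. The median deviation of the 16 enzymes from their own means was 0.53, 0.66 and 0.21 on the LL34 scrambled arrays and -0.34, -0.40 and -0.32 on the NANCI scrambled arrays. It was -0.05, -0.13 and -0.01 on the LL34 shRNA arrays and -0.0043, -0.17 and -0.21 on the NANCI shRNA arrays. After this subtraction of array medians, the scrambled groups stood at the 2 ends of the range. Both shRNA groups lay between them and overlapped each other. The subtraction is the same for dim and bright genes. Yet the upper quartiles were close, at 8.69 to 8.71 on the LL34 and 8.72 to 8.75 on the NANCI shRNA arrays. Without the subtraction, 8 enzymes were lower and 1 higher in the LL34 shRNA group (median -0.29), so the overlap depends on it.

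The counts changed with the choice of control. A control group of all scrambled arrays joins sets that looked normalized apart (median over named genes -0.23, LL34 scrambled against NANCI scrambled). The changes given for it here were not corrected for this offset. With all 6 scrambled arrays taken as 1 control group, 5 enzymes fell after LL34 shRNA (Mvk, Fdps, Fdft1, Msmo1 and Hsd17b7) in place of 13. The changes of Cyp51 and Hmgcs1 were then -1.02 and -0.61 and were not called (limma adjusted p = 0.124 and 0.314). After NANCI shRNA only Mvd still rose among the enzymes, and Hmgcs1, Sqle and Cyp51 turned to -0.38, -0.25 and -0.07, none of them called. Insig1 and Srebf2 still fell after LL34 shRNA, at -0.75 and -0.61 (limma adjusted p = 0.032 and 0.0216). Npc1 and Abca1 kept both of their calls: Npc1 changed by 0.59 after LL34 and -0.71 after NANCI shRNA, and Abca1 by 0.41 and -0.32. With each set of 6 arrays fitted alone, Mvd, Lss and Insig2 missed the threshold after LL34 shRNA (limma adjusted p = 0.113, 0.0815 and 0.0742), as did Ebp and Abca1 after NANCI shRNA (limma adjusted p = 0.0746 and 0.0662).

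Other genes of the pathway, listed with earlier results known, were read from the same fit. The counts of this and the following lists stand beside the shares over all named genes. Those were 9.77% called higher and 10.3% lower after LL34 shRNA, and 13.2% higher and 13.6% lower after NANCI shRNA. Of 15 genes of lipoprotein uptake and sterol traffic, 4 rose and 3 fell after LL34 shRNA, and 3 rose and 3 fell after NANCI shRNA. Vldlr, the receptor for very low density lipoprotein, stood out in size: its mean signal went from 9.28 to 11.02 after LL34 shRNA, a rise of 1.74 (limma adjusted p = 4.09e-07), and from 10.76 to 8.52 after NANCI shRNA, a fall of 2.25 (limma adjusted p = 7.82e-08). Lrp8, a related receptor, and Abcg4, a sterol pump, each fell by 0.64 after LL34 shRNA. After NANCI shRNA Gramd1a, which carries cholesterol from the plasma membrane, rose by 0.52, and Lrpap1, a chaperone of these receptors, fell by 0.44.

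Among 7 measured genes of SREBP processing and reductase turnover, 4 rose and 2 fell after LL34 shRNA, and 2 rose and 3 fell after NANCI shRNA. Erlin1 and Erlin2, membrane proteins that bind cholesterol and take part in sterol-driven protein breakdown, rose by 0.75 and 0.45 after LL34 shRNA and fell by 0.51 and 0.40 after NANCI shRNA. Mbtps1, the protease that makes the first cut in SREBP, fell by 0.39 after NANCI shRNA. Srebf1, the gene of SREBP-1, fell by 0.47 after LL34 shRNA.

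Of 9 genes of the isoprenoid branch, which leaves the pathway before squalene, 3 rose after LL34 shRNA and 3 fell after NANCI shRNA. Over all named genes, 9.77% were called higher after LL34 shRNA and 13.6% lower after NANCI shRNA, and with 9 genes these counts are small. Coq2, an enzyme of ubiquinone synthesis, rose by 0.58 after LL34 and fell by 0.63 after NANCI shRNA. Fnta and Fntb, the subunits of farnesyltransferase, rose by 0.37 and 0.45 after LL34 shRNA, and Nus1 (-0.40), of dolichol synthesis, and Pggt1b (-0.27), a subunit of another prenyltransferase, fell after NANCI shRNA. Of 6 oxysterol and bile acid enzymes, only Hsd3b7 changed, falling by 0.47 after NANCI shRNA.

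Of 10 measured fatty acid synthesis genes known as SREBP-1 targets, 8 fell and none rose after LL34 shRNA (median -0.50), and 2 rose and 2 fell after NANCI shRNA (median -0.03). Elovl6, which lengthens fatty acids, fell by 1.41 after LL34 shRNA, Fasn, fatty acid synthase, by 0.91, and Elovl5 by 0.70. After NANCI shRNA Fads1, a desaturase, fell by 0.97 and Acly, which supplies acetyl-CoA, by 0.44, while Fasn rose by 0.33.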

How the data were processed

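Gene expression was read from 12 arrays, 3 in each of 4 groups given by the sample titles. The values deposited by the authors are log2 signals, 1 per probe set and array. Tools named in the submitters' processing notes are oligo, RMA and limma, with versions not given in the sources used here. Names came from the platform annotation, for probe sets with exactly 1 symbol. limma 3.58.1 in R 4.3.3, with the package data.table (version 1.17.8), was run on the deposited values as 4 group means over all 12 arrays with empirical Bayes moderation, Benjamini-Hochberg adjustment over 41345 probe sets and a threshold of 0.05. The code was tested on simulated data.

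The members and lists were chosen with earlier results of these data known. Single-array values were given for up to 6 called members with the largest change in each direction and for all sensing, uptake and efflux genes. From each related list, up to 3 called genes with the smallest p were named per knockdown. Alternatives were quantile normalization over all arrays, median centring, each set alone, a replicate block, array weights, a filter on dim probe sets, all probe sets of a gene averaged, pooled scrambled arrays and each array left out. Arrays have no read depth: their number limits the precision.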

Additional observations from a re-analysis of the deposited data

Results flagged for a closer look

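For 18 of the 26 genes the responses to the 2 hairpins differed by the test of the difference itself (limma with Benjamini-Hochberg adjustment), given here as the LL34 change minus the NANCI change on the log2 scale. Over all named genes, 12.3% were called higher and 12% lower in this test. Each such difference is also the gap between the shRNA groups less the gap between the scrambled groups. For the synthesis enzymes, the median gap was -0.29 between shRNA groups and 0.43 between scrambled groups. Less that of all named genes it was -0.03 and 0.66, a correction that is the same for dim and bright genes. Among early synthesis enzymes the values were -1.87 for Hmgcs1, -0.64 for Mvk, -1.0 for Mvd, -0.84 for Fdps, -0.75 for Fdft1 and 0.73 for Pmvk. Among late enzymes they were -1.56 for Sqle, -0.55 for Lss, -2.46 for Cyp51, -1.86 for Msmo1, -0.96 for Nsdhl, -0.34 for Ebp and -0.85 for Sc5d. Outside synthesis they were -1.08 for Insig1, -0.69 for Srebf2, 1.78 for Npc1, -0.36 for Npc2 and 0.78 for Abca1. The values of Ebp, Lss and Npc2 missed the threshold in some fits with 1 array left out, and those of the other 15 genes passed in all 12 such fits.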

How the results depend on the processing

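Using all 6 scrambled arrays as 1 control group changed the results most. After NANCI shRNA 1 synthesis enzyme rose, against 7, and the enzymes' median less that of all named genes turned from 0.184 to -0.241; Hmgcs1 (-0.38), Sqle (-0.25) and Cyp51 (-0.066) reversed. After LL34 shRNA 5 enzymes fell, against 13, the relative median was -0.229, against -0.524, and 4309 probe sets were called, against 6766. Adding quantile normalization, chosen after seeing the data, gave 1 enzyme that rose and a relative median of -0.206 after NANCI shRNA, with Hmgcs1 at -0.43, Sqle at -0.29, Cyp51 at -0.11 and Ebp at -0.0028, and 4 that fell and a relative median of -0.317 after LL34 shRNA. A pooled control lies between the 2 scrambled groups, and LL34 scrambled was above NANCI scrambled by 1.63 for Hmgcs1, 1.50 for Cyp51 and 1.20 for Sqle. Why the scrambled groups differed was not tested.

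Under the other planned settings the enzymes that rose after NANCI shRNA numbered 5 to 8 and those that fell after LL34 shRNA 11 to 14. Leaving out each array in turn gave 6 to 8 and 11 to 14, relative medians of 0.135 to 0.228 and -0.616 to -0.455, and 6699 to 9551 and 4704 to 6670 called probe sets. The array weights did not converge fully. With probe sets under the median level left out, fewer were tested, and 10994 were called between the scrambled groups and 13447 between the shRNA groups, against 22561 and 26158. With arrays centred on their medians, Insig2 turned to 0.18 and Scap to 0.035 between the scrambled groups, and to 0.057 and 0.20 between the shRNA groups. There the enzymes split 15 higher and 0 lower between the scrambled groups and 5 higher and 3 lower between the shRNA groups. The Scap values came from its brightest probe set. Its dimmer probe set, without centring, differed by -0.88 between the scrambled groups and -0.97 between the shRNA groups.

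The replicate numbers did not pair the arrays: deviations of same-numbered arrays correlated from -0.125 to 0.045. With the replicate number as a block, 6906 probe sets were called after NANCI shRNA and 5257 after LL34 shRNA, and 5 and 12 enzymes rose and fell.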

Other observations

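Across the 16 synthesis enzymes, the change after NANCI shRNA and the change after LL34 shRNA, which share no arrays, gave Pearson's r = -0.572 and Spearman's rho = -0.403. Across all 26 genes the values were -0.504 and -0.327. Genes are not independent replicates, and these values only describe the 2 comparisons.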
